A study of Homo sapiens with 14 samples.

Results

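The genes described here are 44 DNA replication and S-phase genes, out of 18372 genes measured in 7 human prostate cancer cell lines. They were listed by name, and the list was written with earlier results of these data known. A gene entered through a probe set annotated with exactly 1 of the listed symbols. For 43 of the 44 a single probe set did so. UHRF1 had 2, of which the brighter over all arrays was used. The 44 genes fell into 7 groups by role: 6 subunits of the MCM helicase, 10 genes of origin licensing and firing, 7 of polymerases and primase, 8 of the sliding clamp, its loader and the RPA complex, 4 of nucleotide supply, 5 of Okazaki fragment maturation and chromatin, and 4 G1/S regulators and repair genes.

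DNA replication starts at origins that the origin recognition complex marks and that CDC6 and CDT1 load with the ring-shaped MCM helicase. CDC45 and the GINS complex then join the ring and open the double helix, primase and polymerase alpha lay down primers, and a clamp loader places the PCNA clamp that keeps the later polymerases on the template. Many of these genes are transcribed late in G1 under the control of E2F factors, so in a bulk sample their RNA level is commonly read together with the share of cells in S phase.

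The study asked how expression differs between prostate cancer cells labelled bone-metastatic or not. Each line was measured on 2 single-colour arrays made from different passages in culture, 14 arrays in all. All lines shared the same serum-containing DMEM with gentamicin, and no line was otherwise treated. PC3-ML (Clone 1) and PC3-ML (Clone 3), hereafter Clone 1 and Clone 3, each descend from 1 cell of PC3-ML, so each is a single clone. PC3-ML is a subline of PC3, as is PC3-N, and PC3-N(PDGFRα) is PC3-N made to overexpress the receptor tyrosine kinase PDGFRα. DU-145 (PDGFRα) is DU-145, another prostate cancer line, made to overexpress the same receptor. No line with an empty vector was among the samples, and the labels do not name the promoter of the transgene. Clone 1, Clone 3, PC3-ML and PC3-N(PDGFRα) carry the label bone-metastatic, and PC3-N, DU-145 (PDGFRα) and DU-145 carry the label non-bone-metastatic. Nothing in the labels says that the 2 passages of a line came from separate stocks. Most p-values given here therefore measure the spread between passages of 1 culture. In the tests of the bone-metastatic label and in a fit of PC3 against DU-145 line means, differences between lines entered the spread. Only 2 arrays stand behind each line mean.

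Values are array intensities on a linear scale after RMA by the authors, and changes are differences of log2 line means. A gene is said to have risen or fallen where limma, fitted over all 18372 genes and 14 arrays, gave an adjusted p under 0.05. The array intensity of 1 gene cannot be set against that of another. In bulk RNA, fewer cells in S phase and less RNA per cell cannot be told apart.

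The overall array values were close: medians lay between 29.9 and 31.6, and the 2 arrays of a line correlated at 0.989 to 0.996 over genes. PDGFRA averaged 834 ± 23.3 in the receptor line PC3-N(PDGFRα) and 106 ± 4.32 in unmodified PC3-N (SD, n = 2 each). It averaged 111 ± 26.4 in the receptor line DU-145 (PDGFRα) and 26.9 ± 1.92 in unmodified DU-145 (SD, n = 2 each). CTNNA1, alpha-catenin, averaged 23.1 to 24.0 in the 5 PC3 lines, against 178 in DU-145 (PDGFRα) and 219.7 in DU-145. The prostate marker KLK3 stayed between 24.2 and 29.6 on all arrays, near the lower end of the scale. Of the epithelial markers, EPCAM lay between 434 and 1747, KRT8 between 207 and 791 and KRT18 between 36.3 and 309. CDH1 averaged only 25.9 to 31.7 in the 5 PC3 lines, against 53.4 in DU-145 (PDGFRα) and 166 in DU-145. The summed intensity of 6 fibroblast markers ran only from 170.5 to 188 over the 14 arrays. That of 6 leukocyte and endothelial markers ran from 137 to 218, of which PECAM1 alone passed the test over the 7 lines.

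Most of the 44 genes differed among the 7 lines. The limma F test over line means called 33 of 44 genes (75%), against 38% of all genes. A second fit held only the 10369 brighter genes, those whose highest line mean exceeded 36.8, the median over genes. Of the 44, 42 passed that level and CDT1 and POLD1 did not. That fit called 36 of the 42 (85.7%), against 65.9% of its genes. Because a gene could pass through its highest line alone, its counts are given as descriptions. By role the count was 6 of 6 MCM subunits, 8 of 10 licensing and firing genes, 5 of 7 polymerase and primase genes, 6 of 8 clamp, loader and RPA genes, 3 of 4 nucleotide supply genes, 1 of 5 Okazaki and chromatin genes (CHAF1B) and 4 of 4 G1/S regulators and repair genes. The 11 genes that this test did not call were ORC1, CDT1, POLD1, POLE, RFC3, RFC5, RRM2, FEN1, LIG1, CHAF1A and UHRF1.

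The median range of line means was 0.68 on the log2 scale for the 44 genes and 0.31 for all genes. A range of at least 1, a 2-fold span between the highest and the lowest line, was reached by 9 of the 44 genes (20.5%) and by 11.8% of all genes. Clone 1 was the highest line for 17 of the 44 genes (38.6%), against 14.3% of all genes. DU-145 (PDGFRα) was the lowest line for 20 of the 44 (45.5%), against 19.5% of all genes. These shares are descriptions and were given no test.

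**Figure D1:**
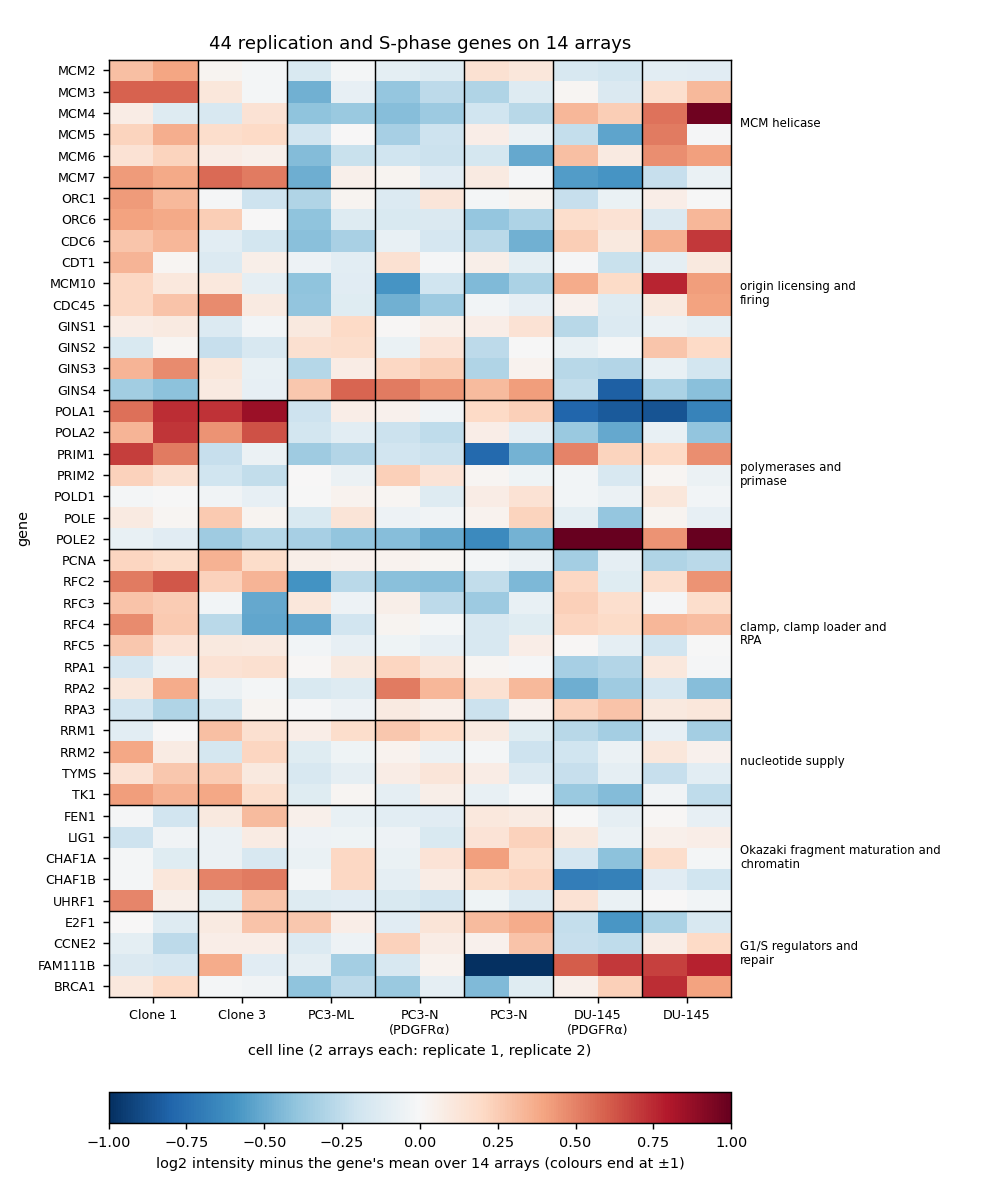
Each row is 1 of the 44 genes, grouped by role, and each column 1 of the 14 arrays; colour gives log2 intensity minus that gene's mean over the 14 arrays, with colours ending at 1 in either direction. Clone 1 is red for 5 of the 6 MCM subunits on both arrays, POLA1 is red in both clones and blue in both DU-145 lines, and FAM111B is deep blue in PC3-N alone.

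The widest range belonged to FAM111B, a gene of a serine protease family whose RNA rises in S phase. Its intensity was 194 and 191 in Clone 1, 277 and 199 in Clone 3, 202 and 169.8 in PC3-ML, 193 and 219.8 in the PC3-N(PDGFRα) line, 102 and 102 in PC3-N, 326 and 350.5 in the DU-145 (PDGFRα) line, and 344 and 366 in DU-145. PC3-N stood below every other line and the DU-145 lines above all, a range of 1.80 on the log2 scale or 3.47-fold. The order of the lines in between was not separable, since the arrays of PC3-ML overlapped those of Clone 1, Clone 3 and PC3-N(PDGFRα).

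POLA1, the catalytic subunit of polymerase alpha, read 256 and 291 in Clone 1, 289 and 316 in Clone 3, 151 and 183 in PC3-ML, 180.2 and 171 in the PC3-N(PDGFRα) line, 201 and 206 in PC3-N, 101 and 97.7 in the DU-145 (PDGFRα) line, and 96.0 and 110.2 in DU-145. The order was both clones first, the 3 uncloned PC3 lines next and the DU-145 lines last, with no overlap between these tiers and a range of 1.61. Clone 1 and Clone 3 overlapped, as did the 2 DU-145 lines.

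POLE2, the second subunit of the leading-strand polymerase, ran the other way. Its intensity was 90.0 and 87.6 in Clone 1, 73.8 and 77.8 in Clone 3, 75.2 and 72.1 in PC3-ML, 70.5 and 66.6 in the PC3-N(PDGFRα) line, 60.7 and 68.2 in PC3-N, 198 and 192 in the DU-145 (PDGFRα) line, and 129 and 197 in DU-145. The DU-145 lines were highest, although 1 DU-145 array lay well below the other, and the range was 1.60. PRIM1, the catalytic subunit of primase, had a range of 1.23 with 478 and 425 in Clone 1, 253 and 284 in Clone 3, 231 and 241 in PC3-ML, 259 and 256 in the PC3-N(PDGFRα) line, 173 and 213 in PC3-N, 417 and 345 in the DU-145 (PDGFRα) line, and 340.1 and 408 in DU-145. Clone 1 exceeded every other array for PRIM1, and PC3-N was lowest.

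CHAF1B, a subunit of the histone chaperone CAF-1 that packs new DNA, had a range of 1.19. Its values were 145 and 159 in Clone 1, 208 and 210.1 in Clone 3, 145 and 169.5 in PC3-ML, 138 and 155 in the PC3-N(PDGFRα) line, 167 and 170.1 in PC3-N, 91.0 and 92.0 in the DU-145 (PDGFRα) line, and 136 and 128 in DU-145. Clone 3 was highest without overlap and DU-145 (PDGFRα) lowest without overlap. The 4 remaining wide ranges were those of MCM4 at 1.15, highest in DU-145, MCM7 at 1.12, highest in Clone 3, GINS4 at 1.02 (2.02-fold), highest in PC3-N(PDGFRα), and RFC2 at 1.00, highest in Clone 1. DU-145 (PDGFRα) was the lowest line for MCM7 and GINS4, PC3-N(PDGFRα) for MCM4 and PC3-ML for RFC2.

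At the other end, POLD1, the catalytic subunit of polymerase delta, spanned 0.17 with arrays from 25.5 to 30.7, a dim signal in every line. CDT1 spanned 0.30 (27.3 to 40.3), LIG1, the ligase that seals Okazaki fragments, 0.30 (31.9 to 43.3), and the clamp loader subunit RFC5 0.30 (131 to 181). CDT1, LIG1 and POLD1 lay low on the intensity scale, where changes are compressed, whereas RFC5 did not.

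**Figure D2:**
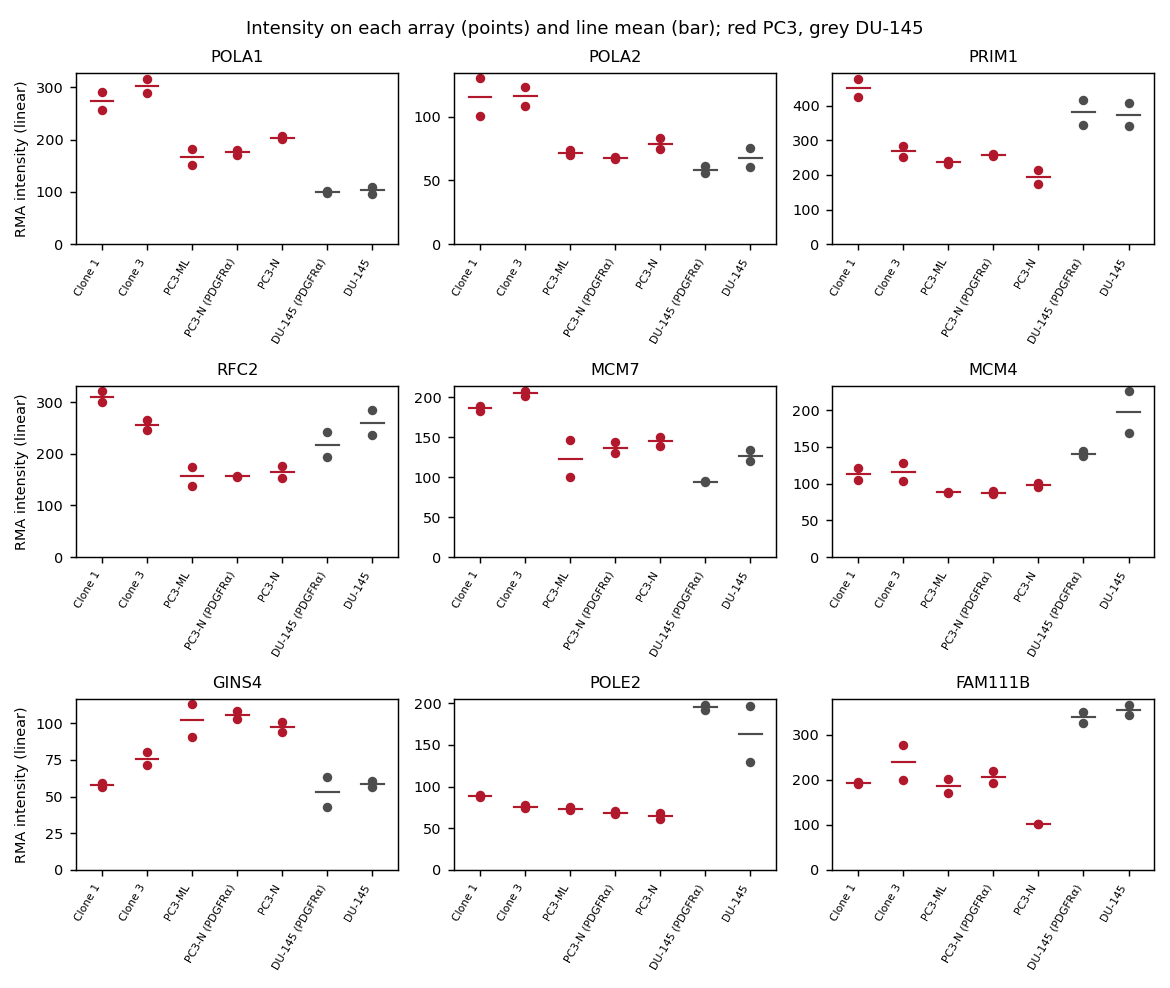
Points are RMA intensities on the 2 arrays of each line on a linear axis starting at 0, and bars are line means, for 9 genes with a wide range; red marks PC3 lines and grey DU-145 lines. POLA1, POLA2 and MCM7 are highest in both clones, PRIM1 in Clone 1, GINS4 in the uncloned PC3 lines, and MCM4, POLE2 and FAM111B in the DU-145 lines.

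RefSeq promoter windows (GRCh38.p14), each 250 bases before and 50 after an annotated start, were available for 37 of the 44 genes, in 49 windows. The E2F core letters TTTGGCGC or TTTCGCGC, on either strand, stood in 12 of the 49 windows (24.5%), against 1.15% of all 35116 windows of the table and 1.47% of the windows of genes tested. The 12 genes were MCM2, MCM3, MCM6, MCM7, CDC6, GINS1, POLA1, POLA2, POLE, POLE2, UHRF1 and E2F1. CCAAT was present in 59.2% of the windows, against 34.6% both of all and of those of genes tested. GGGCGG was in 73.5%, against 45% of all and 57.3% of those of genes tested. The letters TTTGAA, part of a cell-cycle element of mitotic genes, were in 2.04%, against 15.2% of all and 12.3% of those of genes tested. These matches describe letters and not bound sites, and motifs can overlap each other.

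Shown are the 160 bases before the start of MCM6, which held the most E2F core matches, and of POLA1, POLA2 and RFC2, which were higher in both clones. MCM6 lies at chr2:135876444-135876603 on the minus strand, POLA1 at chrX:24693758-24693917 on the plus strand, POLA2 at chr11:65261802-65261961 on the plus strand and RFC2 at chr7:74254400-74254559 on the minus strand (GRCh38.p14). Each is written in the direction of transcription, 5′ to 3′, and capitals mark E2F core letters on either strand.
MCM6: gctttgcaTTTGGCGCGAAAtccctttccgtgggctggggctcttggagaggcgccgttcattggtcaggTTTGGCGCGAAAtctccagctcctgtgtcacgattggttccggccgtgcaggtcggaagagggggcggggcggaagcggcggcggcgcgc
POLA1: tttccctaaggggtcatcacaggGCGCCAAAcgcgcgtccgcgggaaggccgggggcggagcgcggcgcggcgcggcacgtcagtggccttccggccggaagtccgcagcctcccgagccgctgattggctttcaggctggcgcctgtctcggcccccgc
POLA2: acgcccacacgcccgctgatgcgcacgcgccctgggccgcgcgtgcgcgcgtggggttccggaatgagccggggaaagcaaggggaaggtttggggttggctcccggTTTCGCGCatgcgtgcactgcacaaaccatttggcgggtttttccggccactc
RFC2: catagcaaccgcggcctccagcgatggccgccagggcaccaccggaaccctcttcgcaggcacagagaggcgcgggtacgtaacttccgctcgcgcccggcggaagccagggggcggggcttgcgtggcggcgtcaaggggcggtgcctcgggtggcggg
In MCM6 each run of capitals holds a pair of overlapping matches, 1 on each strand, so the 4 matches form 2 runs, beginning 152 and 90 bases before the start. The match of POLA1 began 137 bases before its start and that of POLA2 53 bases before. RFC2, the gene with the largest rise in Clone 1, had no such letters in this window.

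Clone 1 against its parent PC3-ML gave the largest movement of these genes between closely related lines. Of the 44, 17 were higher and 1, GINS4, lower in Clone 1, together 40.9%. Of all genes 13.8% were called (9.01% higher and 4.77% lower), and in the fit of brighter genes 19 of 42 (45.2%) were called, against 26.4% of its genes. The median change was 0.33 for the 44 genes and -0.02 for all genes, and 31 of 44 changes were positive. Both Clone 1 arrays lay above both PC3-ML arrays for 29 of the 44 genes (25.7% of all genes) and below them for 8 (31.7%). The count of calls depended on single arrays. It fell when PC3-ML replicate 1, Clone 1 replicate 1 or Clone 1 replicate 2 was left out, as did the count over all genes. PC3-ML replicate 1 read lower than replicate 2 for 34 of the 44 genes, by a median of 0.09 on the log2 scale.

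Among the MCM subunits, which form the motor of the helicase, 4 of 6 rose in Clone 1. MCM3 had 377 and 377 in Clone 1, against 179.7 and 237 in PC3-ML, a log2 change of 0.87 ± 0.13 (adjusted p = 0.00165). MCM7 had 189 and 183 in Clone 1, against 100.2 and 146 in PC3-ML, a change of 0.62 ± 0.14 (adjusted p = 0.0162). MCM6 had 264 and 278 in Clone 1, against 176 and 204 in PC3-ML, a change of 0.51 ± 0.11 (adjusted p = 0.0133). In all 3, both Clone 1 arrays lay above both PC3-ML arrays, although the PC3-ML arrays of MCM7 were themselves far apart. MCM2 changed by 0.43 ± 0.058 (adjusted p = 0.00116), the smallest rise of the 4. MCM4, at 0.36 (adjusted p = 0.121), and MCM5, at 0.39 (adjusted p = 0.155), did not pass the test.

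Of the licensing and firing genes, 5 of 10 rose and 1 fell. CDC6, the loader that places MCM rings on origins, had 507 and 526 in Clone 1, against 314 and 335 in PC3-ML, a change of 0.67 ± 0.11 (adjusted p = 0.00343). The origin recognition subunit ORC6 had 325 and 320.2 in Clone 1, against 186 and 225 in PC3-ML, a change of 0.66 ± 0.14 (adjusted p = 0.013). ORC1, the subunit that binds CDC6, had 78.2 and 73.2 in Clone 1, against 47.4 and 59.4 in PC3-ML, a change of 0.51 ± 0.12 (adjusted p = 0.0197). The Clone 1 arrays exceeded the PC3-ML arrays for all 3. GINS4 went the opposite way with 59.5 and 56.9 in Clone 1, against 91.0 and 113 in PC3-ML, a change of -0.80 ± 0.16 (adjusted p = 0.00937). Its partners in the GINS complex did not move as one, since GINS3 rose by 0.51 (adjusted p = 0.0299) while GINS1, at -0.07 (adjusted p = 0.638), and GINS2, at -0.24 (adjusted p = 0.16), did not pass the test. The fifth gene that rose was CDC45, at 0.51 (adjusted p = 0.0438).

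The polymerase alpha and primase complex rose in all 4 of its subunits. PRIM1 had 478 and 425 in Clone 1, against 231 and 241 in PC3-ML, a change of 0.93 ± 0.13 (adjusted p = 0.00136). POLA1 changed by 0.71 ± 0.10 (adjusted p = 0.00159), with 256 and 291 in Clone 1, against 151 and 183 in PC3-ML. POLA2, its accessory subunit, had 100.4 and 130.3 in Clone 1, against 69.7 and 73.8 in PC3-ML, a change of 0.67 ± 0.14 (adjusted p = 0.00934). No array of PC3-ML reached an array of Clone 1 for these genes. PRIM2, the large primase subunit, rose by 0.23 (adjusted p = 0.0461). POLD1, POLE and POLE2, of the polymerases that extend the primers, were at -0.03, 0.06 and 0.27, none past the threshold.

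RFC2, a clamp loader subunit, had the largest rise of the 44 genes. It read 299 and 322 in Clone 1, against 138 and 174 in PC3-ML, a change of 1.00 ± 0.14 (adjusted p = 0.00141). RFC4, a second loader subunit, read 598 and 516 in Clone 1, against 298 and 377 in PC3-ML, a change of 0.73 ± 0.12 (adjusted p = 0.00269). For both, the Clone 1 arrays were well clear of the PC3-ML arrays. RFC3 and RFC5, at 0.24 and 0.26, did not pass, nor did the clamp PCNA at 0.15 or any RPA subunit, which ranged from -0.21 for RPA3 to 0.38 for RPA2. In nucleotide supply TK1, thymidine kinase, rose by 0.43 (adjusted p = 0.0147) and TYMS, thymidylate synthase, by 0.33 (adjusted p = 0.0367). None of the 5 Okazaki and chromatin genes and none of the 4 G1/S regulators and repair genes passed, among them E2F1 at -0.23 and CCNE2, cyclin E2, at -0.09. RFC2, PRIM1, MCM3, RFC4, POLA1 and CDC6 kept an adjusted p under 0.05 in all 14 fits that left out 1 array. The remaining 6 of the 12 largest changes lost it in 2 or 3 of those fits.

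Of 30 other replication genes, 10 rose, 0 fell and 20 did not pass the test in Clone 1, with a median change of 0.12 against -0.02 for all genes. Those that rose were led by the origin recognition subunits ORC3 at 1.11 ± 0.074 (adjusted p = 3.71e-05) and ORC4 at 0.79 ± 0.073 (adjusted p = 0.000179). The fork protection gene TIMELESS rose by 0.71 (adjusted p = 0.0021) and the polymerase delta subunit POLD3 by 0.71 (adjusted p = 0.00704). Of 21 other S-phase genes 4 rose: CASP8AP2, needed for histone gene expression, by 0.92 (adjusted p = 0.000127), the remodeller HELLS by 0.74 (adjusted p = 0.00874), the exonuclease EXO1 by 0.65 (adjusted p = 0.00146) and the deubiquitinase USP1 by 0.42 (adjusted p = 0.00757). Of 18 mitotic genes 5 rose, including the kinesin KIF20A by 1.21 (adjusted p = 0.00231) and the checkpoint kinase BUB1 by 1.05 (adjusted p = 0.00179), with TOP2A at 0.51 and AURKA at 0.49. The pocket proteins RBL1 and RBL2, relatives of RB1, rose by 0.52 and 0.51, 2 of the 12 E2F and pocket protein genes, and 0 of 6 CDK inhibitors passed the test.

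Other markers moved with this comparison. Of 6 epithelial and prostate markers, KRT18 was higher in Clone 1 by 2.20 (adjusted p = 0.00768), EPCAM by 1.81 (adjusted p = 4.25e-05) and KRT8 by 0.92 (adjusted p = 0.00444). Their summed intensity ran from 2319 to 2428 on the Clone 1 arrays, against 769 to 858 on the PC3-ML arrays. PECAM1 was higher by 1.03 (adjusted p = 0.0176) and PDGFRA lower (log2 change -2.15), at 28.8 ± 3.21 in Clone 1, against 129.8 ± 36.3 in PC3-ML (SD, n = 2 each). The part of these differences in the replication gene changes was not tested.

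**Figure D3:**
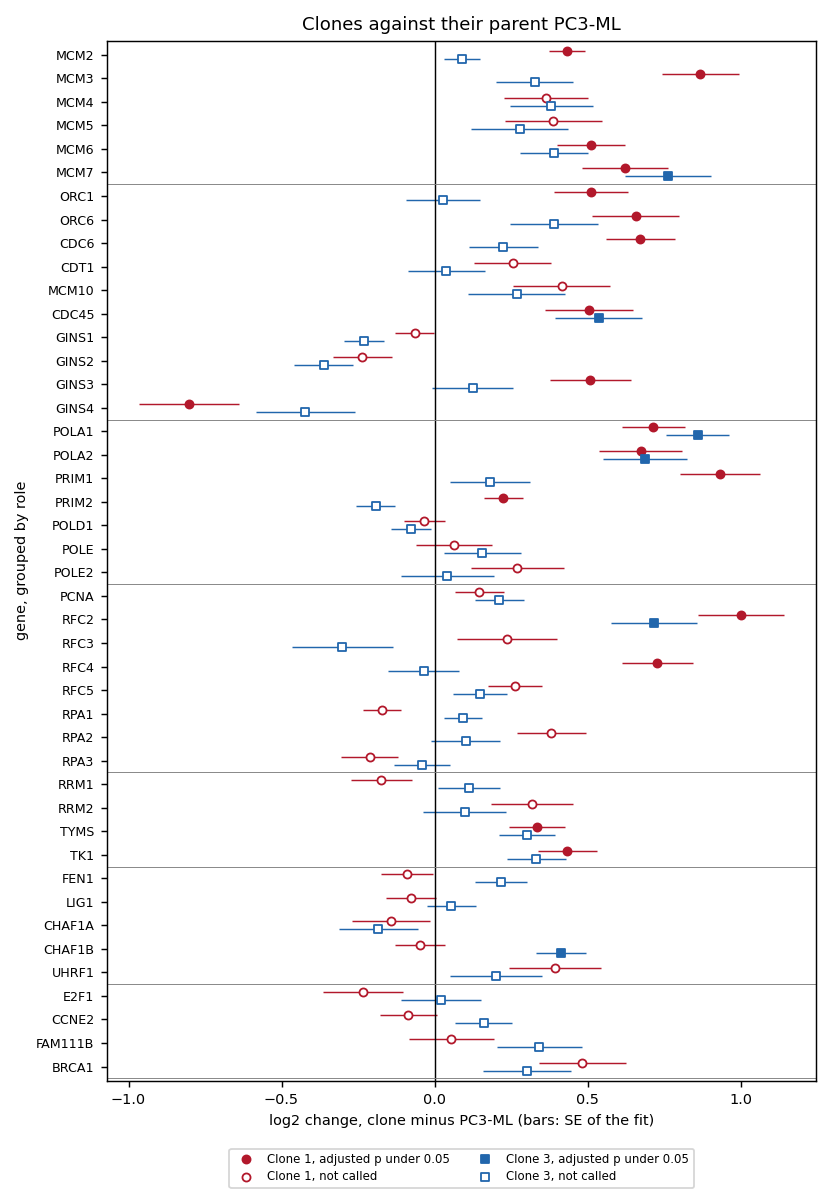
Log2 change of each of the 44 genes in Clone 1 (red circles) and Clone 3 (blue squares) against PC3-ML, with bars for the SE of the fit and filled symbols for an adjusted p under 0.05; both contrasts use the same 2 PC3-ML arrays. There are 18 filled circles, 17 of them right of 0, and 6 filled squares, all right of 0.

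Clone 3 against PC3-ML moved fewer of these genes. Of the 44, 6 were higher and 0 lower (13.6%), against 8.1% of all genes (5.2% higher and 2.9% lower). In the fit of brighter genes 7 of 42 were higher and 1 lower (19%), against 16.7% of its genes. The median change was 0.16, against -0.01 for all genes. The Clone 3 arrays lay above the PC3-ML arrays without overlap for 23 of the 44 genes (23.9% of all genes) and below them for 5 (27.5%). The count of calls fell when PC3-ML replicate 1, Clone 3 replicate 1 or Clone 3 replicate 2 was left out, as did that over all genes. A fit of the arrays of these 2 lines alone gave 3 calls, against 944 of all 18372 genes.

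POLA1 led, with 289 and 316 in Clone 3, against 151 and 183 in PC3-ML and a change of 0.86 ± 0.10 (adjusted p = 0.00146). MCM7 followed with 208 and 202 in Clone 3, against 100.2 and 146 in PC3-ML and a change of 0.76 ± 0.14 (adjusted p = 0.0106). RFC2 had 245 and 264 in Clone 3, against 138 and 174 in PC3-ML, a change of 0.72 ± 0.14 (adjusted p = 0.0137). In each, the arrays of Clone 3 lay above those of PC3-ML without overlap. POLA2 had 108 and 123 in Clone 3, against 69.7 and 73.8 in PC3-ML, a change of 0.69 ± 0.14 (adjusted p = 0.0143). CDC45, the partner of MCM and GINS in the helicase, had 305 and 234 in Clone 3, against 167 and 203 in PC3-ML, a change of 0.54 ± 0.14 (adjusted p = 0.0496). CHAF1B had 208 and 210.1 in Clone 3, against 145 and 169.5 in PC3-ML, a change of 0.41 ± 0.083 (adjusted p = 0.0151). The arrays were again apart, with CDC45 close to the threshold and uneven between the 2 Clone 3 arrays. Only POLA1 kept an adjusted p under 0.05 in all 14 fits without 1 array, and CDC45 lost it in 10 of them.

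The other 5 MCM subunits were between 0.09 for MCM2 and 0.39 for MCM6, all positive and none past the threshold. GINS4 was at -0.42 (adjusted p = 0.166) and GINS2 at -0.36 (adjusted p = 0.0504), both negative and not called. Among 30 other replication genes 3 rose and 0 fell: MCM8, an MCM relative that acts in repair, by 0.60 (adjusted p = 0.00534), the histone chaperone SSRP1 by 0.55 (adjusted p = 0.00716) and the firing factor TICRR by 0.41 (adjusted p = 0.0362). Of 21 other S-phase genes 3 rose, ATAD2 by 0.63, EXO1 by 0.43 and MSH6 by 0.25, and 2 fell, with CCNA2, cyclin A2, at -0.37 and CDCA7 at -0.34. Of 18 mitotic genes, CENPF and AURKA rose, by 0.49 and 0.35, and RBL1 rose by 0.60. The sum of the 6 epithelial and prostate markers was 886 to 936 on the Clone 3 arrays, against 769 to 858 on the PC3-ML arrays.

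Both clones were called against PC3-ML for 5 genes: MCM7, CDC45, POLA1, POLA2 and RFC2. These 2 comparisons share their PC3-ML arrays, so a low reading on those arrays enters both. Another 13 genes were called in Clone 1 alone and 1, CHAF1B, in Clone 3 alone. The shares of all genes in these classes were not counted. Whether the overlap between the clones is particular to the replication genes was therefore not tested. A call in 1 clone and not in the other is no difference between them. That difference has its own test, Clone 1 against Clone 3. Its log2 change uses no PC3-ML array, but those arrays enter the spread that all lines share.

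Between the clones, 7 of the 44 genes were higher in Clone 1 and 3 were lower (22.7%), against 10.5% of all genes (5.85% higher and 4.63% lower). In the fit of brighter genes 8 of 42 were higher and 1 lower (21.4%), near the 20.2% of its genes. The Clone 1 arrays were above without overlap for 20 of the 44 (25.4% of all genes) and below for 10 (25.9%). The count of calls fell when Clone 1 replicate 1, Clone 1 replicate 2 or Clone 3 replicate 2 was left out, as did that over all genes. RFC4 had 598 and 516 in Clone 1, against 357 and 299.5 in Clone 3, a change of 0.76 ± 0.12 (adjusted p = 0.00255). PRIM1 had 478 and 425 in Clone 1, against 253 and 284 in Clone 3, a change of 0.75 ± 0.13 (adjusted p = 0.00508). MCM3 had 377 and 377 in Clone 1, against 271 and 247 in Clone 3, a change of 0.54 ± 0.13 (adjusted p = 0.0221). None of these arrays overlapped. ORC1, CDC6, PRIM2 and MCM2 were higher in Clone 1 by 0.49 (adjusted p = 0.0301), 0.45 (adjusted p = 0.0306), 0.42 (adjusted p = 0.00283) and 0.34 (adjusted p = 0.00465). The other MCM subunits lay near 0, from -0.14 for MCM7 to 0.12 for MCM6, and did not pass the test. All 7 genes higher in Clone 1 than in Clone 3 were among the 13 called in Clone 1 alone. Both comparisons use the same Clone 1 arrays, so a high reading on those arrays enters both.

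CHAF1B was lower in Clone 1, with 145 and 159 in Clone 1, against 208 and 210.1 in Clone 3, a change of -0.46 ± 0.083 (adjusted p = 0.00615). The flap nuclease FEN1, at -0.31 (adjusted p = 0.048), and RPA1, the large subunit of the single-strand DNA binding complex, at -0.26 (adjusted p = 0.0245), were also lower. The call of FEN1 was lost in 13 of the 14 fits without 1 array. RFC4, PRIM1, PRIM2 and MCM2 kept theirs in all 14. The 5 genes called in both clones differed little between them, from -0.15 for POLA1 to 0.29 for RFC2, and none passed the threshold, which does not show that the clones are alike.

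Of 30 other replication genes 7 were higher and 2 lower in Clone 1 than in Clone 3. ORC3 was higher by 0.97 (adjusted p = 6.94e-05), ORC4 by 0.61 (adjusted p = 0.000758), MCM9 by 0.60 (adjusted p = 0.00799) and the checkpoint mediator CLSPN by 0.59 (adjusted p = 0.0261). Of 21 other S-phase genes 3 were higher, CASP8AP2 by 0.76, CDCA7 by 0.38 and CCNA2 by 0.29. Of 18 mitotic genes 3 were higher and 1 lower, led by KIF20A at 1.24 and BUB1 at 0.93. E2F5, a repressive E2F factor, was lower, at -0.72.

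PC3-ML against PC3-N, the bone-metastatic and non-bone-metastatic sublines, moved 1 of the 44 genes, against 0.348% of all genes (0.218% higher and 0.131% lower). In the fit of brighter genes it was 1 of 42, against 1.09% of its genes. FAM111B had 202 and 169.8 in PC3-ML, against 102 and 102 in PC3-N, a change of 0.86 ± 0.14 (adjusted p = 0.0371). Both PC3-N arrays stood below both PC3-ML arrays. The call was lost in 10 of the 14 fits without 1 array, including each of the 4 without an array of these 2 lines, and when only these 4 arrays entered the fit. The next smallest p-values belonged to MCM2, at -0.22 (adjusted p = 0.186), and RPA2, the middle subunit of the single-strand binding complex, at -0.38 (adjusted p = 0.245). The other 5 MCM subunits lay between -0.26 for MCM7 and 0.01 for MCM6, with no call. The median change was -0.05, against -0.01 for all genes, and 17 of 44 changes were positive. Arrays did not overlap for 6 of the 44 in the higher direction (18.6% of all genes) and for 12 in the lower (20.9%). Of the other replication, other S-phase and mitotic genes, 0 of 30, 0 of 21 and 0 of 18 passed the threshold with limma.

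PC3-N(PDGFRα) against PC3-N also gave a call for 1 of the 44 genes, against 2.2% of all genes (1.52% higher and 0.68% lower). In the fit of brighter genes it was 1 of 42, against 4.87% of its genes. It was again FAM111B, with 193 and 219.8 in the PC3-N(PDGFRα) line, against 102 and 102 in PC3-N, a change of 1.01 ± 0.14 (adjusted p = 0.00718) or 2.02-fold. The arrays of the lines were far apart, and this comparison shares its PC3-N arrays with the one above. With no empty-vector line, the part of the receptor was not tested. The call was lost when replicate 1 of PC3-N or replicate 2 of the receptor line was left out, with an adjusted p of at most 0.0553, and in the fit of these 4 arrays alone. MCM2 followed at -0.25 (adjusted p = 0.0647) with 42.4 and 41.6 in the PC3-N(PDGFRα) line, against 50.7 and 49.2 in PC3-N, and LIG1 at -0.29 (adjusted p = 0.121). The other 5 MCM subunits lay between -0.28 for MCM5 and 0.14 for MCM6 and were not called. The 44 changes split evenly, 22 positive and 22 negative, around a median of 0.01. Arrays did not overlap for 13 in the higher direction (21.9% of all genes) and for 15 in the lower (22.1%). Among other lists ORC4 rose by 0.54, ORC3 by 0.37, SLF1, a replication-coupled repair gene, by 0.43 and AURKA by 0.40.

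DU-145 (PDGFRα) against DU-145 gave a call for 1 of the 44 genes, against 0.31% of all genes (0.0653% higher and 0.245% lower). In the fit of brighter genes it was 1 of 42, against 86 of all 10369. CHAF1B was lower in DU-145 (PDGFRα), with 91.0 and 92.0 in the DU-145 (PDGFRα) line, against 136 and 128 in DU-145, a change of -0.53 ± 0.083 (adjusted p = 0.0431). The arrays did not overlap, but the call was lost in 11 of the 14 fits without 1 array, with a trended prior, and in the fit of these 4 arrays alone. RPA1, at -0.36 (adjusted p = 0.0589) with 50.5 and 51.8 in the DU-145 (PDGFRα) line, against 68.4 and 63.1 in DU-145, and CCNE2, at -0.38 (adjusted p = 0.131) with 156 and 154 in the DU-145 (PDGFRα) line, against 192 and 210.1 in DU-145, were next by p. Most small differences ran downwards: 35 of 44 changes were negative with a median of -0.16, where the median of all genes was 0.00. For 23 genes both DU-145 (PDGFRα) arrays lay below both DU-145 arrays, which held for 18.5% of all genes, and for 1, RPA3, above them (18.9% of all genes). Without DU-145 replicate 2 more genes were called, both among the 44 and among all genes. All 6 MCM subunits were negative, between -0.64 for MCM5 and -0.06 for MCM2 with a median of -0.37, and none passed the threshold. TFDP1, the dimer partner of E2F factors, fell, at -0.44.

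The change from PC3-N to PC3-N(PDGFRα), minus that from DU-145 to DU-145 (PDGFRα), was tested directly. It passed the threshold for 1 of the 44 genes, against 0.533% of all genes (0.419% higher and 0.114% lower). In the fit of brighter genes it was 1 of 42, against 1.25% of its genes. That gene was RPA1, with a difference of 0.52 ± 0.089 (adjusted p = 0.0393). Its intensities were 73.5 and 69.1 in the PC3-N(PDGFRα) line, against 64.4 and 63.0 in PC3-N, and 50.5 and 51.8 in the DU-145 (PDGFRα) line, against 68.4 and 63.1 in DU-145. The DU-145 (PDGFRα) arrays were the low ones. The call was lost in 13 of the 14 fits without 1 array. FAM111B, at 1.08 (adjusted p = 0.0516), and CDC6, at 0.61 (adjusted p = 0.146), followed by p. The 6 MCM subunits lay between -0.19 for MCM2 and 0.38 for MCM6, none past the threshold.

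The PC3 lines against the DU-145 lines gave more calls among these genes than any pair of related lines. That comparison held 10 and 4 arrays, where a pair of lines held 2 and 2, so the counts are not on equal terms. Of the 44, 15 were higher and 11 lower in the 5 PC3 lines than in the 2 DU-145 lines, together 59.1%. Of all genes 38.8% were called (22.3% higher and 16.5% lower). In the fit of brighter genes 27 of 42 (64.3%) were called, near the 60.8% of its genes. With each line reduced to its mean, 7 values in all, 6 of the 44 were called, 4 higher and 2 lower. That fit called 3237 of all 18372 genes, a larger share than among the 44. The lines within each group are relatives, and the clones and receptor lines are not independent samples of PC3 or DU-145.

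**Figure D4:**
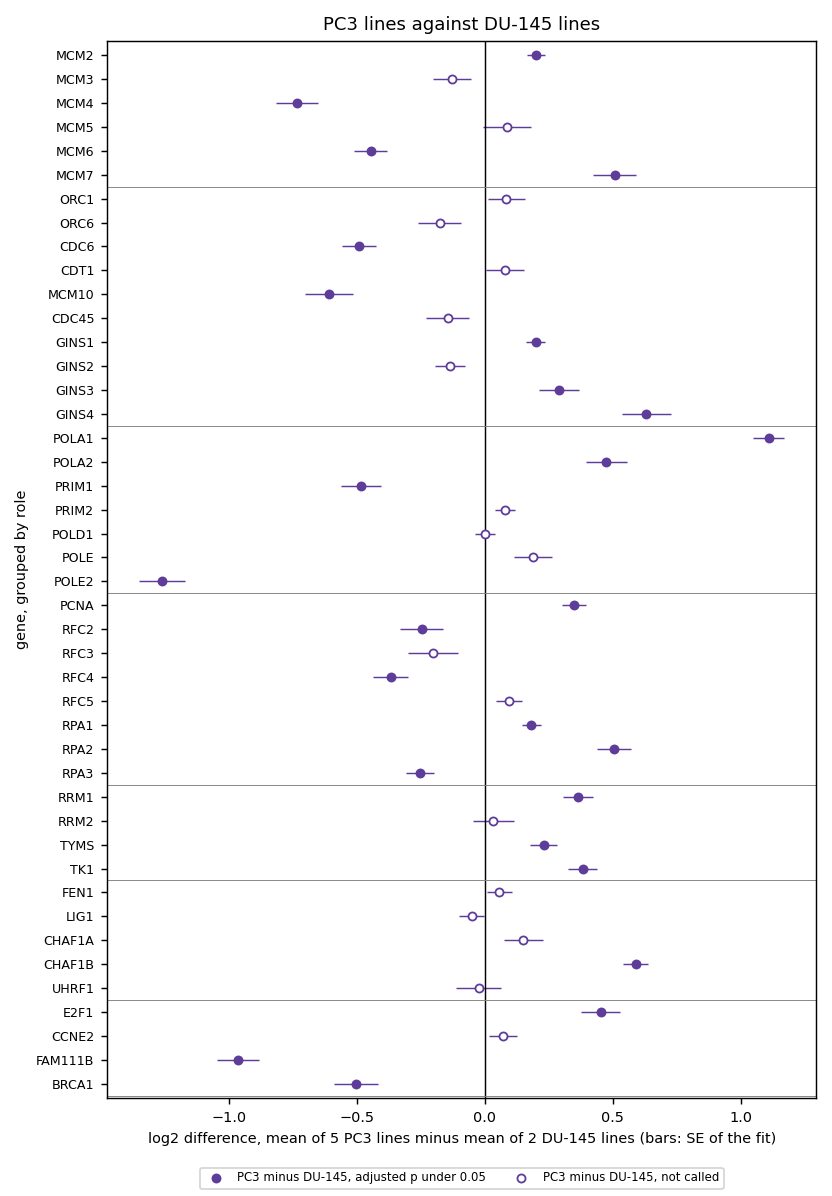
Log2 difference of each of the 44 genes, the mean of 5 PC3 lines minus the mean of 2 DU-145 lines, with bars for the SE of the fit and filled symbols for an adjusted p under 0.05. POLA1 lies farthest to the right at 1.11 and POLE2 farthest to the left at -1.26.

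Complexes split between the groups. The polymerase alpha subunit POLA1 ranged over 151 to 316 in the PC3 lines and 96.0 to 110.2 in the DU-145 lines, a difference of 1.11 ± 0.061 (adjusted p = 3.35e-07). POLE2 ranged over 60.7 to 90.0 in the PC3 lines and 129 to 198 in the DU-145 lines, a difference of -1.26 ± 0.09 (adjusted p = 2.02e-06). Neither gene's arrays overlapped, and they stood in opposite directions. PRIM1, the primase subunit that works with POLA1, was lower in the PC3 lines, at -0.48 (adjusted p = 0.000586), although Clone 1 at 425 and 478 exceeded all DU-145 arrays.

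In the MCM ring, MCM7 was higher in the PC3 lines, at 100.2 to 208 against 93.3 to 134 in the DU-145 lines, a difference of 0.51 ± 0.083 (adjusted p = 0.000698). MCM4 was lower, at 85.8 to 128 in the PC3 lines against 137 to 226 in the DU-145 lines, a difference of -0.73 ± 0.081 (adjusted p = 4.45e-05). The groups overlapped for MCM7 and not for MCM4. MCM2 was higher, at 0.20 (adjusted p = 0.001), and MCM6 lower, at -0.45 (adjusted p = 0.000352), while MCM3, at -0.13, and MCM5, at 0.09, did not pass. GINS4 was higher in the PC3 lines by 0.63 (adjusted p = 0.000431) with overlapping arrays, since Clone 1 read as low as DU-145. MCM10, a fork assembly factor, and CDC6 were lower, at -0.61 (adjusted p = 0.000444) and -0.49 (adjusted p = 0.000184).

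Among the remaining genes, CHAF1B ranged over 138 to 210.1 in the PC3 lines and 91.0 to 136 in the DU-145 lines, a difference of 0.59 ± 0.049 (adjusted p = 6.00e-06). FAM111B ranged over 102 to 277 in the PC3 lines and 326 to 366 in the DU-145 lines, a difference of -0.96 ± 0.082 (adjusted p = 7.19e-06). RPA2 ranged over 111 to 176 in the PC3 lines and 87.6 to 109 in the DU-145 lines, a difference of 0.51 ± 0.067 (adjusted p = 0.000161). The arrays of the 2 groups did not overlap for these 3 genes. BRCA1, a homologous recombination gene, was lower in the PC3 lines, at -0.50 (adjusted p = 0.000827). Over the 10 PC3 and 4 DU-145 arrays, 5 of the 44 genes were higher without overlap (CHAF1B, E2F1, PCNA, POLA1 and RPA2), against 10.1% of all genes. Another 4 were lower without overlap (FAM111B, MCM4, POLE2 and RPA3), against 7.41%. The 12 largest of the 26 differences kept an adjusted p under 0.05 in all 14 fits without 1 array. With the 7 line means as units 9 of these 12 lost it, and POLE2, POLA1 and MCM4 kept it.

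Other lists split too. Of 30 other replication genes 13 were higher and 6 lower in the PC3 lines, led by the polymerase delta subunit POLD2 at 1.04 ± 0.067 (adjusted p = 9.72e-07), MCM8 at 1.03, the ribonuclease subunit RNASEH2A at 0.85 and the nuclease DNA2 at 0.78. Of 21 other S-phase genes 6 were higher and 10 lower, with HELLS at -1.26, the histone mRNA binding gene SLBP at -0.77, the dUTPase gene DUT at -0.72 and DTL, a ubiquitin ligase adaptor, at 0.72. Of 18 mitotic genes 3 were higher and 10 lower, with TOP2A at -0.84, CENPE at -0.73, CCNB2 at -0.71 and CCNB1 at -0.67. Of 12 E2F and pocket protein genes 4 were higher and 3 lower, including E2F7 at 1.13, TFDP1 at 0.60 and RB1 at -0.59. The CDK inhibitors CDKN1B, CDKN2A and CDKN1A were lower, at -0.68, -0.56 and -0.18, 3 of 6. The sum of the epithelial and prostate markers, of which 4 of 6 were lower in the PC3 lines, was 769 to 2428 on the PC3 arrays, against 2064 to 3041 on the DU-145 arrays, and its part in these differences was not tested.

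The labels' own division, 4 bone-metastatic lines against 3 others, was tested on 7 line means because the label belongs to a line. With limma 0 of the 44 genes passed the threshold, as did 0% of all genes, and 5 of the 44 had an unadjusted p under 0.05. A fit that took the 14 arrays as separate samples called 21 of the 44, 13 higher and 8 lower, and 30.2% of all genes. Both DU-145 lines are on the non-bone-metastatic side, so the label and the line of origin are largely entangled. PCNA, the sliding clamp, had the smallest p. It ranged over 283 to 355 on the 8 arrays of bone-metastatic lines, and over 221 to 275 on the 6 others, a difference of 0.31 ± 0.085 (adjusted p = 0.405). It was the only 1 of the 44 whose arrays did not overlap, which held for 0.8% of all genes in the higher direction. The next 2 by p were RRM1, the large subunit of ribonucleotide reductase, at 0.31 (adjusted p = 0.405), and LIG1 at -0.15 (adjusted p = 0.405). Differences of the 6 MCM subunits ran from -0.47 for MCM4 to 0.40 for MCM7.

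Over the 7 line means the 44 genes did not run as a single block. The median correlation over 946 gene pairs was 0.16, with 58.8% of pairs positive. It was 0.55 over the 15 pairs of MCM subunits, 0.59 over the 6 pairs of nucleotide supply genes and -0.07 over the 21 pairs of polymerase and primase genes. The highest single values were 0.97 each for MCM6 with BRCA1, MCM10 with BRCA1 and MCM6 with MCM10. The lowest were -0.92 for POLE2 with E2F1 and -0.91 each for MCM10 and MCM6 with GINS4. These figures describe 7 related lines, of which 5 share the PC3 origin, and the difference between PC3 and DU-145 enters all of them.

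**Figure D5:**
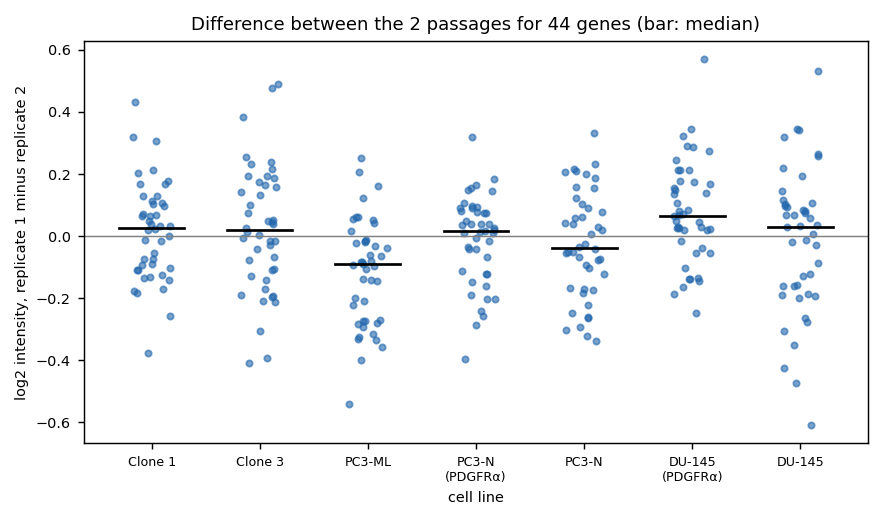
Each point is the log2 intensity of 1 of the 44 genes on replicate 1 minus that on replicate 2 of the same line, with a bar for the median. The PC3-ML points lie mostly below 0, with a median of -0.09, and the DU-145 (PDGFRα) points mostly above, with a median of 0.07.

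The 2 passages of a line set the spread against which most of this was tested. In the tests of the bone-metastatic label and in the fit of PC3 against DU-145 line means, differences between lines entered the spread. In PC3-ML, replicate 1 was lower for 34 of the 44 genes, with the largest gap at MCM7 (0.54 on the log2 scale). In DU-145 (PDGFRα), replicate 1 was higher for 32 of the 44, with the largest gap at GINS4 (0.57). In the other 5 lines replicate 1 was higher for 20 to 26 of the 44. Over all genes, 48.8% were higher on replicate 1 of PC3-ML and 47.8% on replicate 1 of DU-145 (PDGFRα). DU-145 held the largest gap of any gene, 0.61 at POLE2.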

How the data were processed

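Total RNA of 7 cell lines, 2 passages each, was labelled with biotin and hybridised to 14 single-colour arrays, per the labels' protocols. The deposited values were intensities that the authors made with RMA, per the submitters' processing notes; its version is not given in the sources used here. They ran from 18.5 to 8654 on a linear scale and were converted to log2 with no pseudocount.

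Of 28829 probe sets, 19291 carried 1 gene symbol in the platform annotation, 1735 several and 7803 none. For 19260 the gene ID matched RefSeq (GRCh38.p14), and 0 symbols changed. The brightest probe set stood for each of 682 genes with several, which left 18372 genes. Array data give no read depth, and precision is limited by the number of arrays.

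The model, limma 3.58.1 under R 4.3.3, held the 14 arrays together with a separate mean for each line (7 residual degrees of freedom), with p-values adjusted by Benjamini-Hochberg over all 18372 genes and a threshold of 0.05. Bone-metastatic lines were compared on 7 line means. The script was tested on simulated data. In the main fit, replicate numbers were not used to pair the lines. Over 21 pairs of lines, deviations correlated between -0.20 and 0.24, which cannot exclude a batch shared by some lines. Alternatives were quantile normalization, median scaling, a filter on dim genes, the mean of all probe sets, a trended robust prior, the replicate number as a block, only the lines compared, other units, and leaving out each array.

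The members and gene lists were chosen with earlier results of these data known. In each comparison up to 12 called members are described by size of change, the 3 smallest p-values where fewer than 3 were called, MCM2 to MCM7 always, and up to 4 called genes of each other list. Members outside that rule are named to account for a role group and were picked after their values were seen. Some genes of these lists are not reported here.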

Additional observations from a re-analysis of the deposited data

Results flagged for a closer look

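Among the 5 PC3 lines, 1 line stood far from the others for 2 genes. The gap to the nearest line was set against the whole range of the 5 line means, with 0.71 as the limit. ORC1 in Clone 1 had a ratio of 0.726, with a geometric mean intensity of 75.6, against 53.0 to 58.5 in the other 4 lines. FAM111B in PC3-N had a ratio of 0.715, at 102, against 185 to 235 in the other 4 lines. The same search among the 4 bone-metastatic lines found no line apart. Such a search over 88 groups of values (44 genes in each set of lines) gives about 4.4 by chance alone at 1 in 20.

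For RPA1, the change from PC3-N to PC3-N(PDGFRα) differed from that between DU-145 and DU-145 (PDGFRα) by 0.52 on the log2 scale. This came from the test of the difference itself. The difference kept an adjusted p under 0.05 in 1 of the 14 fits that left out 1 array.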

How the results depend on the processing

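Leaving out 1 array moved the count by over 1.5 times in 3 of 14 fits for Clone 1 against PC3-ML. It did so in 3 for Clone 3 against PC3-ML, in 3 between the clones and in 2 to 12 where 1 gene was called. Under the other alternatives, 7 results over all 44 genes moved that far. With only the arrays of the lines compared, Clone 3 against PC3-ML gave 3 calls. PC3-ML against PC3-N, the receptor line against its parent in PC3-N and in DU-145, and the difference of those 2 comparisons gave 0 each. That fit has fewer arrays by construction. A trended robust prior gave 0 for the receptor line in DU-145, and median scaling gave 2 for the difference of the receptor comparisons. With 7 line means PC3 against DU-145 lines gave 6 (3237 of all genes). With 14 arrays in one fit the bone-metastatic comparison gave 21 (5556 of all genes). Apart from array number, the cause was not tested.

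With the replicate number as a block, 16 genes were called in Clone 1 against PC3-ML, 8 in Clone 3 against PC3-ML, 9 between the clones, 1 for the receptor in PC3-N, 26 for PC3 against DU-145 lines and 33 over the 7 lines. Over all 18372 genes that fit called 2493, 1442, 1878, 377, 7138 and 6826 in the same order. The block gave 0 of the 44 for PC3-ML against PC3-N, for the receptor in DU-145 and for the difference. Of all genes it called 42, 10 and 72 there. The labels do not say that a number pairs the samples, and 5 of 21 pairs of lines correlated above 0.1.

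Leaving out 1 array in turn gave 8 to 23 calls for Clone 1 against PC3-ML, 2 to 8 for Clone 3 against PC3-ML, 4 to 9 between the clones, 0 to 1 for PC3-ML against PC3-N, 0 to 1 for the receptor in PC3-N, 0 to 4 for the receptor in DU-145, 0 to 1 for the difference, 24 to 28 for PC3 against DU-145 lines, 28 to 34 over the 7 lines and 0 for the bone-metastatic label. The counts over all genes also changed between these fits, except that for the bone-metastatic label. Quantile normalization moved the PC3 against DU-145 split to 14 higher and 15 lower. The 44 single-gene results were already called in the main fit, and every setting reused arrays of that fit. A reversal was therefore unlikely from the start, and 0 reversed under any setting. Between 0 and 5 lost their call under each setting that kept all arrays as units. With only the lines compared 12 of 32 lost it, and with 7 line means 9 of 12.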
